A study of Mus musculus with 2 samples.

Results

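The genes of the NF-kB subunits and their inhibitors were described in the accessible chromatin of mouse regulatory T cells. The set held 10 of the 21938 protein-coding gene models of the annotation: the subunit genes Nfkb1, Nfkb2, Rel, Rela and Relb, and the inhibitor genes Nfkbia, Nfkbid, Nfkbiz, Bcl3 and Tnfaip3. They were chosen by name, and the locus of each took in its gene body and 10 kb on both flanks. The 10 loci held 70 of 68832 accessible regions in replicate 1 and 79 of 78178 in replicate 2 on chromosomes 1 to 19, X and Y.

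NF-kB is a family of transcription factors that act as dimers and bind a short DNA sequence, the kB site. In resting cells most dimers are held in the cytoplasm by IkB proteins. Signals from the T cell receptor or from tumour necrosis factor receptors activate a kinase complex that marks the IkB proteins for degradation, and the freed dimers enter the nucleus. Several of the inhibitors are themselves textbook targets of NF-kB, which closes a feedback loop. In regulatory T cells the subunit c-Rel is known for its part in the induction of Foxp3.

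Per the labels, accessibility was measured by ATAC-seq, where a transposase cuts and tags open DNA, in a single group of 2 libraries with no second condition. Both libraries came from primary regulatory T cells of C57BL/6NJ mice, with no treatment named and with sex and age not given. The labels give both the same donor, so it is not known that they came from separate animals, and any spread between them can be technical. The labels link a protocol for the differentiation of CD4 T cells, which was not read, and the names of the deposited entries hold 72 hours and also ASTARR and insert, terms that no source used here explains. If they stand for inserts of another assay, the regions and the signal could reflect more than accessibility, and this was not settled for any value given here. Read depth is unknown for both lists, so no counting interval can be given. ATAC-seq measures open chromatin and not the level of any transcript.

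The labelled cell type was checked against marker genes. A promoter region, here a region within 1 kb of an annotated start, was present in both replicates at 5 of 5 regulatory T cell markers (Foxp3, Il2ra, Ctla4, Ikzf2 and Tnfrsf18) and at 4 of 4 T cell markers. It was present at 1 of 2 CD8 T cell markers (Cd8b1), 1 of 4 B cell markers (Pax5), 1 of 4 myeloid markers (Cd14), 0 of 3 hepatocyte markers and 1 of 2 neuron markers (Rbfox3), against 64.4% of all protein-coding genes. Cd8a, Ms4a1 and Lyz2 had none, and the part of other cells in the values below was not tested.

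Matches to the kB site were sought in the GRCm38 (mm10) genome under the regions, on both strands, with the NF-kB consensus of 10 letters that allows either purine after its 3 leading Gs. The sites below lie in the accessible promoter regions of Nfkb2, Nfkbia, Rel and Tnfaip3, and are shown as examples of promoters with 2 to 6 such sites. Each is written 5′ to 3′ on the strand where the match starts with its Gs, with the match in capitals. Its distance in bases runs from the start of a reference coding transcript of the gene to the centre of the match, negative before that start. Other transcripts of Nfkb2 and Tnfaip3 start farther upstream, so the sites of these genes at negative distances lie within the gene model.
Nfkb2 site at -97 bases, chr19:46304688-46304717, plus strand: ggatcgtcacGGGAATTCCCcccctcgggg
Nfkb2 site at -69 bases, chr19:46304716-46304745, plus strand: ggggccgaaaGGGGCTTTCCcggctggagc
Nfkb2 site at 454 bases, chr19:46305239-46305268, plus strand: cagggagggcGGGATGCTCCcgtttgaccg
Nfkb2 site at 541 bases, chr19:46305326-46305355, plus strand: accgtggaggGGGAAACTCCtcccccccac
Nfkb2 site at 664 bases, chr19:46305449-46305478, minus strand: ggcttttgtgGGGACATTCCtgccgtcgga
Nfkb2 site at 910 bases, chr19:46305695-46305724, plus strand: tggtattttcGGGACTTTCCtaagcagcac
Rel site at -86 bases, chr11:23771041-23771070, plus strand: ggggagggggGGGGATTTCCcgctgcttac
Rel site at -566 bases, chr11:23771521-23771550, plus strand: atttgcatacGGGGACCCCCgcagccttat
Nfkbia site at 850 bases, chr12:55491782-55491811, plus strand: agggatgacaGGGAAACCCCccgaggggtg
Nfkbia site at 685 bases, chr12:55491947-55491976, plus strand: cagccgcccaGGGACTTTCCgtgccccacc
Nfkbia site at -25 bases, chr12:55492657-55492686, plus strand: gtcaggcgcgGGGAATTTCCaagccagtca
Nfkbia site at -269 bases, chr12:55492901-55492930, plus strand: ttctttccctGGGGTTTCCCaccgggcgat
Tnfaip3 site at -8 bases, chr10:19015403-19015432, plus strand: ttgccaacagGGGGATTTCCgatggaaatt
Tnfaip3 site at -121 bases, chr10:19015516-19015545, plus strand: gtcccgccccGGGGTGTCCCcgcgtgagtc

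The second set shows the sites that lay within 100 bp of the summit, the most accessible base, of regions away from the promoters of the gene itself. A match is a description of the sequence and was not measured as a bound site.
Nfkb1 intron 16 site, chr3:135602313-135602342, plus strand: atacccctggGGGAAGTTCCccgataccag
Nfkb1 intron 6 site, chr3:135640345-135640374, minus strand: ttatttagtaGGGGTTTTCCacaggaaatt
Nfkb1 intron 1 site, chr3:135670760-135670789, minus strand: gggtacataaGGGACTTTCCcactgctttc
Nfkb2 exon 13 site, chr19:46309018-46309047, minus strand: gttcgccctgGGGAGCCTCCgggggcgtcc
Nfkb2 downstream site, chr19:46314964-46314993, plus strand: agagctacctGGGGCTCCCCtccccgcacc
Rel intron 3 site, chr11:23754407-23754436, plus strand: aatgatgatgGGGGAACTCCcctaccacca
Rela downstream site, chr19:5648936-5648965, plus strand: ctaagcggtgGGGAAACCCCtatgctgaga
Relb upstream site, chr7:19635558-19635587, plus strand: ggcaggcattGGGAAACCCCccagagacca
Nfkbia downstream site, chr12:55488821-55488850, plus strand: gcttcctctcGGGGTGTCCCcgcacaagct
Bcl3 intron 2 site, chr7:19817620-19817649, plus strand: tgtgcgggaaGGGATTTCCCcgaggcggca

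Of these 24 sites, 8 also fit the strict NF-kB motif, which requires 3 Ts ahead of the closing Cs and leaves the 2 bases after the leading Gs free, so that it overlaps the consensus without being contained in it. The Nfkb1 intron 1 site and the Nfkb2 site at 910 bases hold the same 10 letters, as does 1 of the Nfkbia sites.

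The RefSeq promoter table of build GRCm38.p6 held 7 of the 10 genes, with Nfkb1, Relb and Nfkbiz not among them. The stretches before the starts of Nfkbia and Rel are shown on the strand of the gene, with NF-kB consensus matches in capitals, because they carry the matches nearest to those starts.
Nfkbia promoter stretch, chr12:55492649-55492897, minus strand: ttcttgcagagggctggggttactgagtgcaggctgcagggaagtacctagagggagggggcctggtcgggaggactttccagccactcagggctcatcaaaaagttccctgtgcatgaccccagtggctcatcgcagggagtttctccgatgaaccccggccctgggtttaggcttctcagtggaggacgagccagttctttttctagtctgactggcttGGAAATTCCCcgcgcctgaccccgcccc
Rel promoter stretch, chr11:23770971-23771219, minus strand: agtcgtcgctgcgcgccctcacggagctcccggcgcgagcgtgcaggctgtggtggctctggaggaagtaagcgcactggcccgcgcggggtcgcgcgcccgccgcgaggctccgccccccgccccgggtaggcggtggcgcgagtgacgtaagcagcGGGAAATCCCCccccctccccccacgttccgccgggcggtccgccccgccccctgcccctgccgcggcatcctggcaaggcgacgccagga

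In the Nfkbia stretch the single match begins at -29 from the start. In Rel there are 2 overlapping matches, the first of which begins at -91. Of the 12 windows of 300 bases that the table gives for the 7 genes, 8 held the consensus, against 9.43% of the windows of all coding genes. Windows of a gene can overlap, and the Nfkb2 windows from 46305445 and from 46305680 both hold the Nfkb2 site at 910 bases. Counted by gene, 6 of the 7 had at least 1 window with a match, all but Rela, against 10.8% of genes. The windows of the 7 genes had a median of 21 CpG and a GC content of 65.2%, beside 14 CpG and 57.0% over all coding windows.

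All 10 genes had a promoter region in both replicates, where 64.4% of protein-coding genes did. Of the regions at the 10 loci, 64 of the 70 in replicate 1 were overlapped by a region of replicate 2, or 91.4%, against 93.2% of all regions of replicate 1. In replicate 2 it was 64 of 79, or 81.0%, against 81.6%. A region overlapped in this way by at least 1 bp is called replicated here. The 6 and 15 regions seen in 1 replicate alone were weak, with a median signal percentile of 2.03 and 3.30, where the percentile ranks a region within its own list by the deposited signal. They were spread over 7 of the loci, and the strongest was inside Rela in replicate 2, at the 38.4th percentile.

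**Figure D1:**
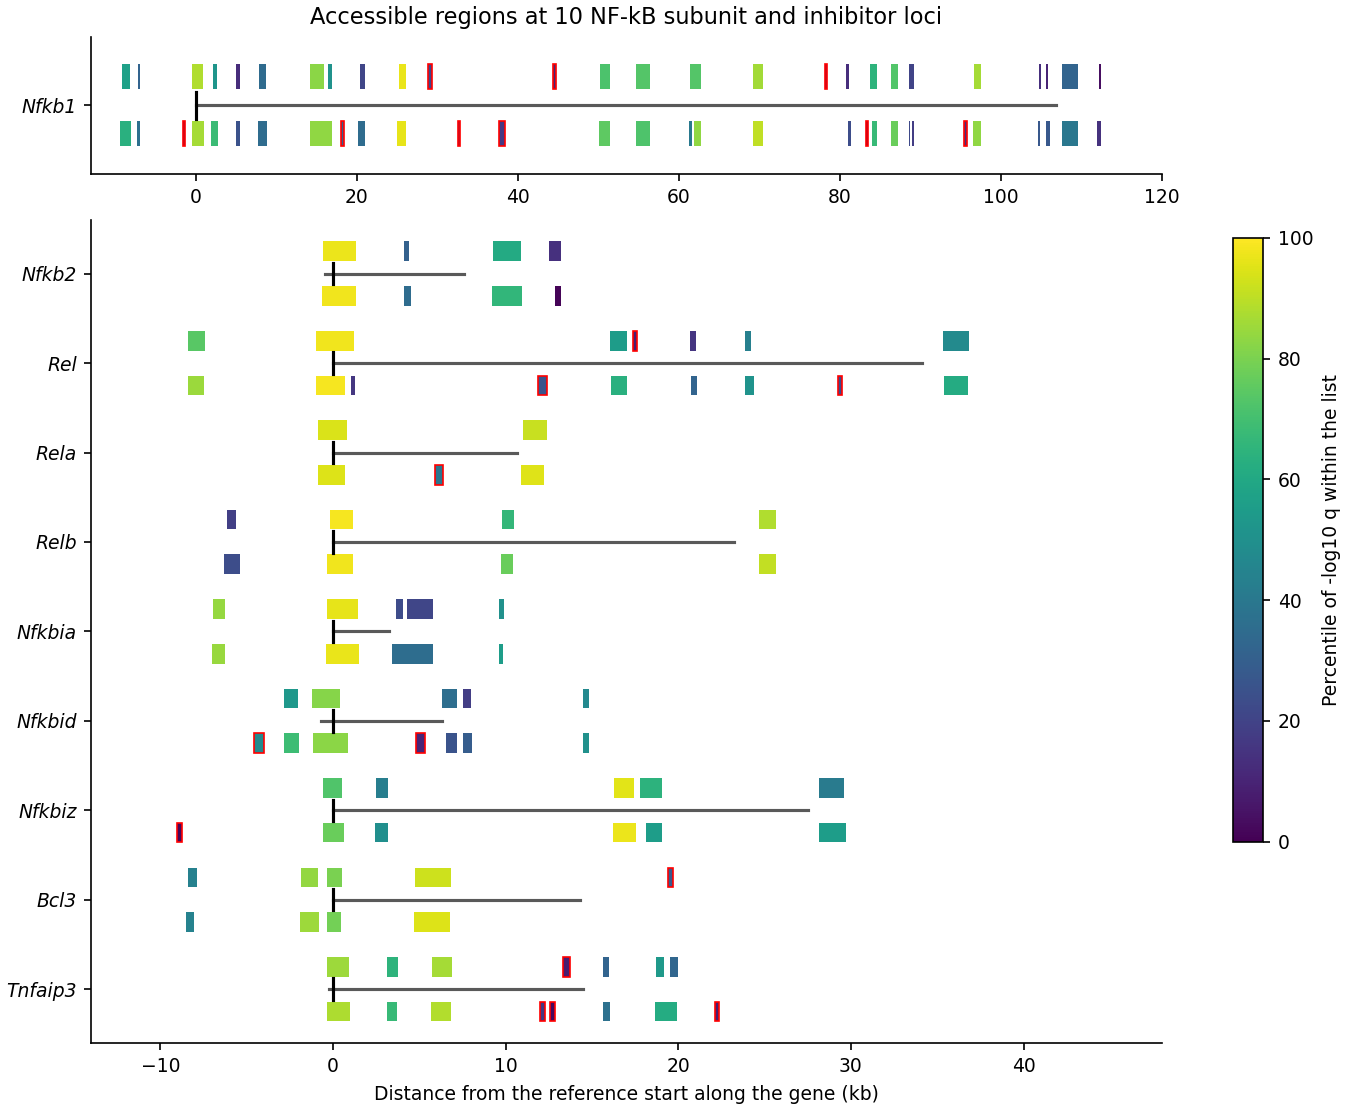
Accessible regions along the 10 loci, drawn to scale by distance in kb from the reference transcript start in the direction of the gene. Nfkb1 is on an axis of its own because its gene body is longest. The upper row of boxes at each gene is replicate 1 and the lower row replicate 2, the line is the gene body, the tick is the start, colour is the percentile of -log10 q within the list, and red edges mark regions seen in 1 replicate alone. Each start is covered by a region in both replicates, and Nfkb1 has regions along its whole body.

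Replicated regions were counted per locus in the list of replicate 1, with the number in replicate 2 given where it differs. Nfkb1 had 23 (24), Nfkb2 4, Rel 6 (7), Rela 2 and Relb 4. Nfkbia had 5 (4), Nfkbid 5, Nfkbiz 5, Bcl3 4 and Tnfaip3 6 (5). The median was 5 over the 10 genes, beside 2 over all protein-coding genes and 3 over genes with an open promoter, and at least 1 replicated region stood in the locus of 76.3% of all protein-coding genes. Nfkb1 held 23 of the 64, and the other 9 genes held 41. Many of these regions were weak by signal: with the 50000 strongest entries of each list by signal, the counts were 32 in all and 8 at Nfkb1. The full lists held 68832 and 78178 regions.

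Counted per 100 kb of locus in replicate 1, Nfkbia had 21.5 regions, Nfkbid 18.5, Nfkb1 18.1 and Tnfaip3 17.3. Nfkb2 had 14.3, Bcl3 11.7, Rel 11.1, Nfkbiz 10.5, Relb 9.25 and Rela 6.53. The order of the densest loci was not the same in replicate 2, where Nfkb1 had 18.9, Nfkbid 18.5, Nfkbia 17.2 and Tnfaip3 14.4. Nor did it hold with the 50000 strongest entries by signal, where Bcl3 had 11.7, Rel 9.24, Tnfaip3 8.63 and Nfkbia 8.61. Nfkb1 had 6.30 at that setting, and Nfkbid, Relb and Rela also lay above it. Medians over all genes were not taken at that setting, so whether the 10 stood above them there was not tested. Nfkb1 has the longest locus of the 10, at 127 kb, and Nfkbia the shortest, at 23.2 kb. In replicate 1 with all entries the median over the 10 was 13.0, beside 4.85 over all protein-coding genes and 7.15 over those with an open promoter, and 9 of the 10, all but Rela, lay above the latter. The locus lengths had a median of 34.5 kb, beside 37.4 kb for all protein-coding genes.

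By place, 14 of the 64 regions of replicate 1 lay within 1 kb of a start of a coding transcript of the gene, 25 others in introns, 1 in an exon, 7 upstream and 17 downstream. Of those away from the gene's own starts, 3 lay at the promoter of a neighbouring coding gene: Psd beside Nfkb2, Clasrp beside Relb and Hcst beside Nfkbid. These 3 were counted by the rule for the locus, and which gene they serve was not measured.

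The subunit genes were taken first. Nfkb1 encodes p105, the precursor of the p50 subunit, and lies on chromosome 3 at 135584655 to 135691547 on the minus strand. The region at its start, 135690616 to 135692051 in replicate 1, had its summit in the UTR of exon 1, with a signal of 7.36 in replicate 1 and 6.65 in replicate 2 and a -log10 q of 126 and 155. The region with the highest -log10 q of the locus was another, in intron 3 at 25.5 kb from the start, with a -log10 q of 239 and 316 and a signal of 9.50 and 9.13. By signal that region was highest in replicate 1, while in replicate 2 a region in intron 7 at 70.0 kb was slightly higher, with 9.40.

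The intron 3 region is shown with 100 bases to either side of its summit, on the plus strand, because it outranked the promoter. None of the 10 motifs searched, which are listed with the motif shares, had its letters in this window.
Nfkb1 intron 3 window, chr3:135665903-135666103, plus strand: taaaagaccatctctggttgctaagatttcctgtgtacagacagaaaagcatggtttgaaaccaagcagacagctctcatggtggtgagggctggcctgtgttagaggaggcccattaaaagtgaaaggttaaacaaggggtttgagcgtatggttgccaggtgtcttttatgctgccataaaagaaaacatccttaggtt

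The other Nfkb1 regions ran from strong to barely called. In replicate 1, 6 of them lay in intron 1 and 3 in intron 6. Of the 23 regions, 11 lay below the 10th percentile of signal in replicate 1, and 11 of the 24 did so in replicate 2. The sites shown for introns 1, 6 and 16 belong to regions of unequal strength: the intron 6 region at 51.2 kb had a -log10 q of 52.6 and 78.7, the intron 1 region at 20.8 kb 7.44 and 14.2, and the intron 16 region at 89.1 kb 6.90 and 6.69 in the replicate 2 region with its summit 57 bp away.

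Nfkb2 encodes p100, the precursor of p52 in the noncanonical pathway, and lies on chromosome 19 at 46304320 to 46312385 on the plus strand. Its promoter region, 46304219 to 46306123 in replicate 1, was 1905 bp wide and covered the starts of several transcripts. It had a signal of 8.19 and 8.27 and a -log10 q of 249 and 386 in replicates 1 and 2, and was the strongest of the locus by both measures in both. The 6 NF-kB consensus sites shown for Nfkb2 all lie in it. A second, weaker region at 10.2 kb, within the neighbouring gene Psd, had a signal of 4.43 and 4.28 and carries the downstream site.

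Rel encodes c-Rel and lies on chromosome 11 at 23736847 to 23770970 on the minus strand. Its promoter region, 23769762 to 23771953 in replicate 1, had a signal of 9.84 and 10.4 and a -log10 q of 267 and 433, which was the highest -log10 q of any region at the 10 loci in replicate 2. An upstream region at -7.93 kb had the higher signal, 10.5 in replicate 1 and 14.1 in replicate 2, with a -log10 q of 58.5 and 140. Its signal stood at the 77.5th and 93.1st percentile of the lists, so the replicates differed more for it than for the promoter, at the 73.6th and 78.7th.

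Rela encodes p65, the main transactivating partner of p50, and lies on chromosome 19 at 5637483 to 5648130 on the plus strand. It had only 2 replicated regions, and both were strong. The region at the start, 5636625 to 5638281 in replicate 1, had a signal of 13.8 and 13.7 and a -log10 q of 193 and 282. The region beyond the 3′ end, 5648512 to 5649868, had a signal of 12.8 and 14.4 and a -log10 q of 158 and 292. The start was the stronger in replicate 1 and the 3′ region in replicate 2, by both measures.

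The 3′ region of Rela is shown around its summit, on the plus strand, because it was near the promoter in strength and carries an NF-kB consensus match. Capitals mark, from left to right, an ETS match, a GC box and the NF-kB consensus.
Rela downstream window, chr19:5648826-5649026, plus strand: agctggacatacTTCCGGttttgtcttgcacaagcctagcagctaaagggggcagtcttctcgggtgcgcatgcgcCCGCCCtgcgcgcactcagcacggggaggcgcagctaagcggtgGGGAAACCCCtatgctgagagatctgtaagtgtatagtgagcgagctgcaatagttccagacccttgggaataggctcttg

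Relb encodes the RelB subunit, which pairs with p52, and lies on chromosome 7 at 19606217 to 19629438 on the minus strand. Its promoter region, 19628253 to 19629606 in replicate 1, had a -log10 q of 304 and 387, the highest of any region at the 10 loci in replicate 1. Its signal was 11.5 and 10.3. By signal it was exceeded by the region at the start of the neighbouring Clasrp, with 14.1 and 14.6, and in replicate 2 also by a region in intron 4, which had 10.4 in replicate 1 and 13.3 in replicate 2. The Relb site shown lies in a weak region within the neighbouring gene Clptm1, with a signal of 3.47 and 3.19.

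Among the inhibitors, Nfkbia encodes IkB-alpha, the classical inhibitor that holds NF-kB in the cytoplasm. It lies on chromosome 12 at 55489410 to 55492647 on the minus strand. Its promoter region, 55491183 to 55493016 in replicate 1, had a signal of 6.25 and 6.26, near the middle of the lists at the 47.4th and 51.6th percentile, but a -log10 q of 226 and 336, at the 96.2nd and 96.7th. It was 1834 and 1935 bp wide, and holds the 4 sites shown for Nfkbia. By signal the top of the locus was an upstream region at -6.59 kb, within the gene model Gm36634, with 11.6 and 11.1.

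Beyond the 3′ end of Nfkbia lay some of the weakest signals at the 10 loci. In replicate 1 these were 2 regions at 3.89 and 4.65 kb from the start with signals of 1.70 and 1.68, and in replicate 2 a single region covered both, with 1.78. All 3 stood below the 1st percentile by signal, while by -log10 q, 7.70, 7.28 and 14.6, they stood at the 22.8th, 20.8th and 35.3rd.

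The atypical IkB proteins act in the nucleus and can raise or lower transcription with NF-kB. Nfkbid encodes IkB-NS, which is known to favour Foxp3 induction, and lies on chromosome 7 at 30421732 to 30428746 on the plus strand. Its promoter region, 30421183 to 30422824 in replicate 1, had a signal of 5.63 and 5.31 and a -log10 q of 88.1 and 120, the lowest promoter percentiles of the 10 by both measures in both replicates. By signal the top of its locus lay within Aplp1 at 14.7 kb, with 6.89 and 6.37.

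Nfkbiz encodes IkB-zeta and lies on chromosome 16 at 55811375 to 55838899 on the minus strand. It had accessible regions at 2 separate coding starts. The region at the internal start, 16.7 kb into the gene in intron 2 of the reference transcript, had a signal of 10.1 and 10.5 and a -log10 q of 216 and 347. The region at the first start had a signal of 6.69 and 6.87 and a -log10 q of 54.7 and 86.7. The internal start was thus the higher by both measures in both replicates.

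Bcl3, which encodes an atypical IkB that binds p50 and p52, lies on chromosome 7 at 19808462 to 19822770 on the minus strand. Its start had a region with a signal of 5.94 and 5.31 and a -log10 q of 78.8 and 94.6, and a further region at -1.62 kb, upstream of the reference start, had 7.44 and 7.39, with a -log10 q of 98.5 and 142. The highest -log10 q was in intron 2 at 5.11 kb, where the gene model Gm16174 overlaps, with 166 and 276 and a signal of 7.22 and 7.76. So at Bcl3, as at Nfkb1, a region inside an intron stood above the promoter by -log10 q in both replicates.

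The intron 2 region and the upstream region of Bcl3 are shown around their summits, on the plus strand, because both carry an NF-kB consensus match. In the intron capitals mark the NF-kB consensus and, after it, a RUNX match. In the upstream window they mark GC boxes, the NF-kB match, which also fits the strict motif, and an AP-1 match.
Bcl3 intron 2 window, chr7:19817557-19817757, plus strand: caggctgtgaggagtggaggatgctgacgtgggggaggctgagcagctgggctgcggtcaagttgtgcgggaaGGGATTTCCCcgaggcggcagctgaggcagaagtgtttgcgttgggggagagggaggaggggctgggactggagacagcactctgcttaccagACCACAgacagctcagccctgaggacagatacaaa
Bcl3 upstream window, chr7:19824291-19824491, plus strand: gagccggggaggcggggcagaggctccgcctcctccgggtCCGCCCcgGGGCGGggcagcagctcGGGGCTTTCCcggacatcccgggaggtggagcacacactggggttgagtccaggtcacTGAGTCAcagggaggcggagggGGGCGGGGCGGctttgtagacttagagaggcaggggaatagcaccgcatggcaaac

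Tnfaip3 encodes A20, a ubiquitin-editing enzyme that shuts off signalling upstream of the IkB kinase. It lies on chromosome 10 at 19000910 to 19015657 on the minus strand. Its promoter region, 19014464 to 19015760 in replicate 1, had its summit in the UTR of exon 1, with a signal of 7.45 and 7.56 and a -log10 q of 109 and 164. A region in intron 2 at 5.84 kb was close to it by signal, with 7.47 and 7.44, and higher by -log10 q, with 115 and 174, as the intron regions of Nfkb1 and Bcl3 were. The region at an internal coding start at 3.41 kb was weaker, with a signal of 3.64 and 3.51.

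The strongest promoter region of each gene was placed within its list and set beside the 63% of protein-coding genes with a region in both replicates at a coding start. By signal the median percentile of the 10 was 60.4 in replicate 1 and 64.2 in replicate 2, beside 81.7 and 83.2 over all such genes. Only Rela and Relb lay above that median in replicate 1, and Rela alone in replicate 2. By -log10 q the order turned: the median was 95.0 and 95.8, beside 87.4 and 88.8, with 7 genes above it in replicate 1 and 6 in replicate 2. The 14 promoter regions were 1325.5 and 1393.5 bp wide at the median, beside 1161 and 1238 bp over all replicated promoter regions, and the part of width in the difference between the measures was not tested.

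**Figure D2:**
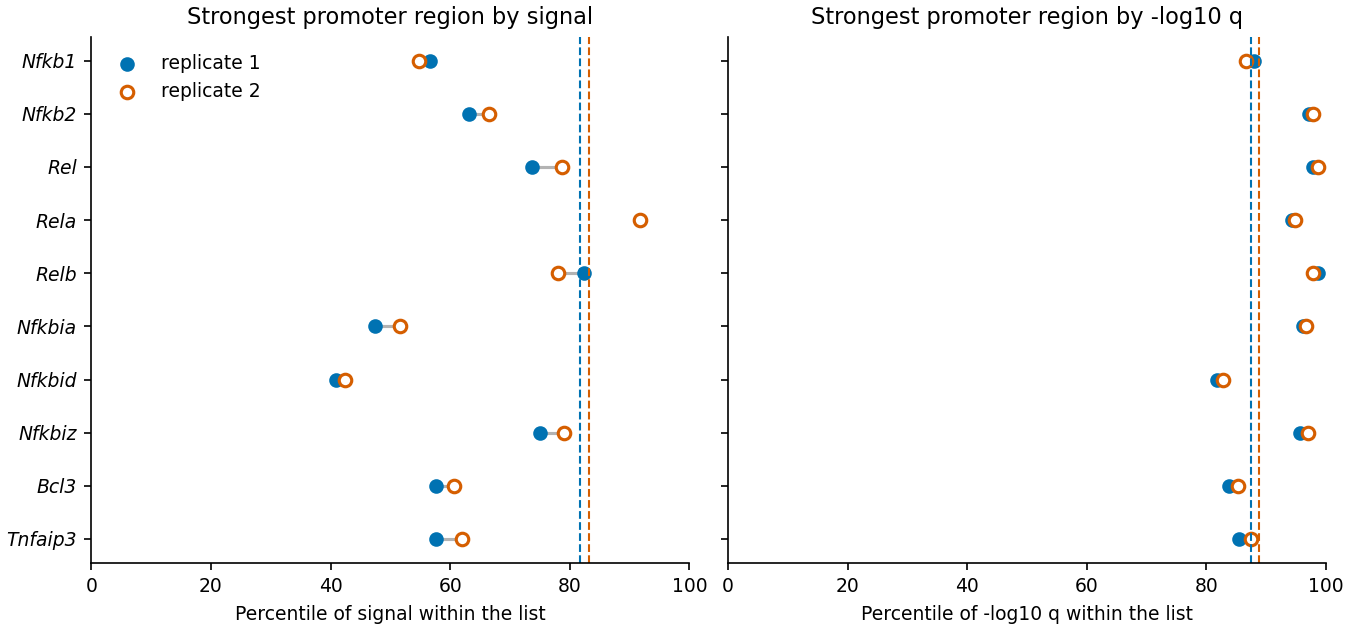
Percentile of the strongest promoter region of each gene within its list, by deposited signal on the left and by -log10 q on the right, for replicate 1 (filled) and replicate 2 (open). The dashed lines are the medians over all protein-coding genes with a region at a coding start in both replicates, 81.7 and 83.2 by signal and 87.4 and 88.8 by -log10 q. By signal most of the 10 genes lie left of the lines, and by -log10 q most lie right of them.

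The order of the genes by promoter signal had Rela first in both replicates, at the 91.7th percentile in each. Relb, Nfkbiz and Rel followed between the 73.6th and 82.3rd percentile, in an order that differed between the replicates. Nfkb2 came next at 63.1 and 66.5, then Tnfaip3, Bcl3 and Nfkb1 between 54.7 and 61.9, and Nfkb1 was the lowest of these 3 in both replicates. Nfkbia and Nfkbid were lowest, and Nfkbid was below Nfkbia in both.

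Over all 64 replicated regions at the loci, the median signal percentile was 28.7 in replicate 1 and 37.4 in replicate 2, beside 53.1 and 59.0 over all replicated regions. By -log10 q it was 56.0 and 64.8, beside 53.4 and 59.1. Regions below the 10th percentile of signal numbered 18 and 16 of the 64, where 7.30% and 4.62% of all replicated regions lay there, and Nfkb1 gave 11 of them in each replicate. Without Nfkb1 the median signal percentile was 35.9 and 44.4. The regions had a median width of 849 and 923 bp, beside 666 and 734 bp over all replicated regions.

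The replicates placed these regions alike. Each of the 64 regions of replicate 1 was set beside its overlapping region of replicate 2, and a few regions of replicate 2 served for more than 1. Summits lay a median of 8 bp apart, beside 20 bp over all replicated regions, and 48 of the 64 were within 50 bp. The farthest, 1578 bp, was in intron 1 of Nfkb1, where replicate 2 had 1 region in place of 2. The rank correlation between replicates was 0.966 for signal and 0.971 for -log10 q, a description over 64 regions of 2 libraries that share the loci. Signal was higher in replicate 2 for 34 of the 64 regions and -log10 q for 60. The median percentile within the list was also higher in replicate 2, at 37.4 against 28.7 by signal and 64.8 against 56.0 by -log10 q. It was higher in replicate 2 over all replicated regions as well.

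**Figure D3:**
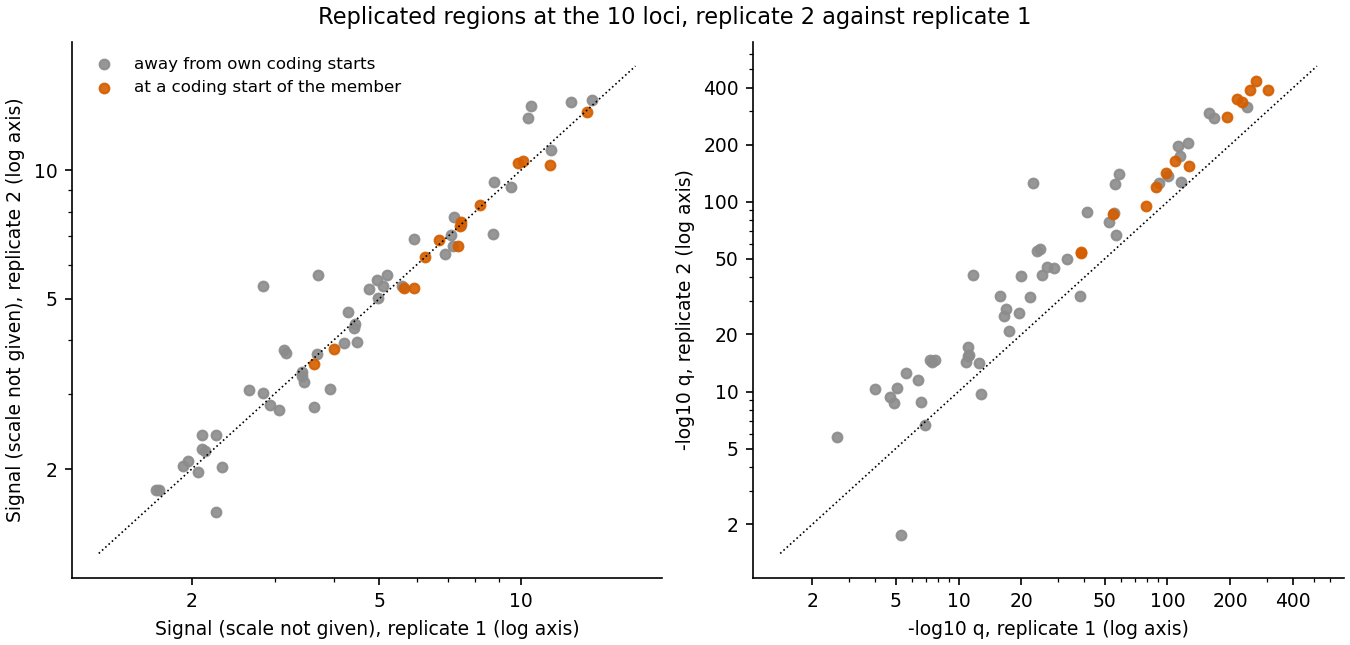
Deposited signal (left) and -log10 q (right) of the 64 replicated regions in replicate 2 against replicate 1, on log axes, with the dotted line at equal values and regions at a coding start of the gene in orange. Signal lies on both sides of the line, with 34 regions higher in replicate 2, while 60 regions have the higher -log10 q in replicate 2.

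Motifs were then counted within 100 bp of the summits. The NF-kB consensus stood near the summit of 14 of the 64 regions, or 21.9%, in each replicate, beside 8.68% and 8.78% of all replicated regions. At the genes' own promoters it was 4 of 14 (28.6%), beside 8.38% and 8.58% of all replicated promoter regions, which were set by their midpoint. Elsewhere in the loci, with the 3 regions at neighbouring promoters included, it was 10 of 50 (20%), beside 8.77% and 8.84% of distal regions. Some of these 10 were weak in replicate 1. Those in Nfkb1 introns 16 and 1, in Nfkb2 exon 13 and beyond Nfkbia had signal percentiles of 1.28, 0.367, 0.514 and 0.0879. The others lay between 13.6 and 87.8. Anywhere in the region the consensus was found in 24 of the 64 (37.5%), beside 22.1% and 23.2%. Without Nfkb1, 10 of 41 regions of replicate 1 held it (24.4%). The 14 regions of replicate 1 belonged to 8 of the genes, all but Nfkbid and Nfkbiz.

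The strict NF-kB motif stood near 7 and 8 of the 64 summits (10.9% and 12.5%), beside 3.18% and 3.29% of all replicated regions. The other motifs lay nearer to their background. AP-1 (TGANTCA), the motif of Fos and Jun, was found at 18.8% and 17.2%, beside 18.6% and 19%. RUNX (TGTGGT) was found at 17.2% and 18.8%, beside 20% and 19.9%. ETS (CCGGAA) was found at 9.38% and 7.81%, beside 7.6% and 7.62%.

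The GC box (GGGCGG), a promoter element, stood near 23.4% and 21.9% of the summits, beside 18% and 17.8%. STAT (TTCNNNGAA) stood near 9.38% in both replicates, beside 13.4% and 13.5%. The IRF motif, a pair of GAAA repeats, stood near 3.12% in both, beside 4.01% and 4.03%, and the TATA motif (TATAAA) near 7.81% and 6.25%, beside 6.99% and 6.97%. The forkhead letters (TGTTTAC), the motif of the family to which Foxp3 belongs, were found near 0 of the 64 summits, where 2.1% and 2.14% of all replicated regions hold them. A count of 0 of 64 allows a share of up to 4.69%, so a difference from that background was not detectable.

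**Figure D4:**
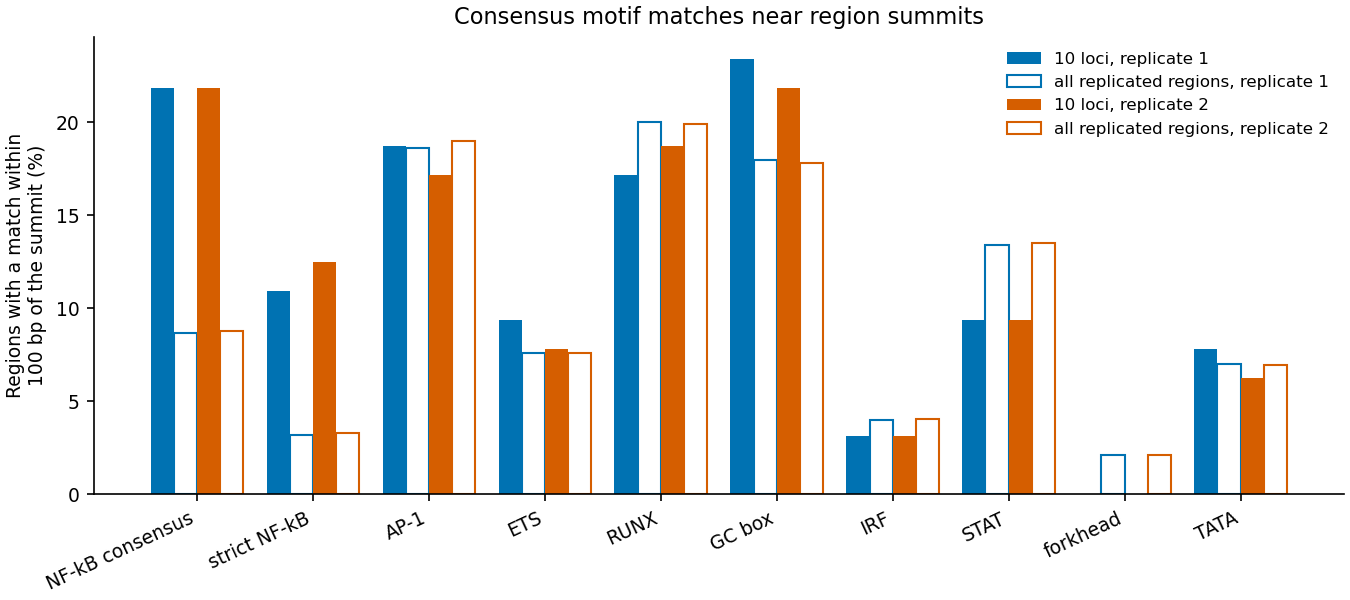
Share of regions with a motif match within 100 bp of the summit, in percent, for the 64 replicated regions at the 10 loci (filled bars) and for all replicated regions (open bars), in replicate 1 (blue) and replicate 2 (orange). The NF-kB consensus stands at 21.9% against 8.68% and 8.78%, while AP-1 stands at 18.8% and 17.2% against 18.6% and 19%.

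Over the whole width of the promoter regions the matches were more numerous. All 10 genes had an NF-kB consensus match in a promoter region, beside 41.5% and 42.8% of the genes with a region at a coding start in both replicates. Of the 14 promoter regions, 12 held at least 1 distinct site, beside 38% and 39.3% of replicated promoter regions. At least 2 sites stood in 7, beside 11.1% and 11.9%, and at least 3 in 3, beside 2.85% and 3.18%. Those 3 were Nfkb2 with 6 sites, Nfkbia with 4 and Relb with 3. The 2 regions without a site were at internal starts of Nfkb1 and Tnfaip3.

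Counts per kb of region take out the width but not the GC content, and the part of GC content was not tested. Per kb, the 14 promoter regions held 1.38 distinct sites in replicate 1 and 1.36 in replicate 2. All replicated promoter regions held 0.440 and 0.433. The other regions of the loci held 0.356 and 0.330 per kb, beside 0.320 and 0.311 in all distal regions. Over whole regions, then, the sites were denser at the promoters, whereas away from the promoters the density was near that of all distal regions and it was the share near summits that stood higher. The genes were chosen by name and include textbook NF-kB targets, so these counts describe the genes, and no test was made.

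The other genes of the pathway were counted in the same way. Of 44 such genes, 43 had a promoter region in both replicates, beside 64.4% of all protein-coding genes. The exception was Tlr4, the receptor for bacterial lipopolysaccharide, with a promoter region in replicate 2 alone. The median was 4 replicated regions per locus and 9.84 per 100 kb. An NF-kB consensus match stood in a promoter region of replicate 1 at 25 of the 43, beside 41.5%. The groups were uneven: 8 of the 10 genes listed as known NF-kB targets and 2 of 2 IkB genes held it. It was held by 3 of 7 kinase genes and 2 of the 6 open receptor genes, and the other groups lay between.

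The 2 remaining IkB genes were open, Nfkbie with 6 replicated regions and Nfkbib with 4. Among the IkB kinase subunits and related kinases, 7 of 7 were open, and Map3k14, which encodes the noncanonical kinase NIK, and Ikbke had 6 each. Prkcq, which encodes the T cell kinase PKC-theta, was open and had 21 replicated regions, beside the 23 of Nfkb1, and 14.1 per 100 kb of locus.

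Of the TRAF and cIAP genes, adaptors of the tumour necrosis factor receptor family, 7 of 7 were open, and Traf3 and Traf5 had 8 replicated regions each. Of the ubiquitin regulators 7 of 7 were open, with 11 each at Otulin, which encodes a linear deubiquitinase, and Tnip1, which encodes a partner of A20. Of the receptors 6 of 7 were open, and Tnfrsf1b, the TNFR2 gene known for its expression on regulatory T cells, had 10 and Il1r1 had 8. Of the known targets 10 of 10 were open, with 10 replicated regions at Bcl2l1, which encodes the survival protein Bcl-xL, and 9 at Cflar. The loci of Tnf and Lta overlap, so their regions are in part the same.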

How the data were processed

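ATAC-seq accessible regions of 2 libraries of mouse regulatory T cells were used, 1 group, with replicate numbers from the labels. The authors deposited a narrowPeak list per library on mm10, made from that library alone, per the labels and their text files. The aligner and the peak caller were not given in the sources used here. Each entry holds the authors' signal, whose scale is not given, and the authors' -log10 p and -log10 q. The deposited score was not used. The deposited summit position gave the centre for motif searches. The lists held 68903 and 78262 entries, with a lowest -log10 q of 1.00 in both, and depth is unknown.

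Entries on chromosomes 1 to 19, X and Y were joined to GENCODE release M21. A locus was the gene body plus 10 kb on both flanks, and a region was replicated where the other list overlapped it by at least 1 bp. Open promoters were counted over starts of any transcript, and promoter strength and promoter motifs over starts of coding transcripts, both within 1 kb. Percentiles are ranks within 1 list, and the deposited signal and -log10 q were used to rank or filter regions. Distances run from the start of a reference coding transcript. Sequence came from the GRCm38.p6 genome and RefSeq promoter windows of 300 bases, 250 before and 50 after the start.

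No test was run: there is no second condition, and genes and regions are not replicates. The 10 genes and the lists of 44 pathway genes and of markers were chosen with earlier results of these data known. Named were the 10 genes, their neighbours whose promoters were met, the strongest region of each locus by signal and by -log10 q, and, of each pathway group, the 2 genes with the most replicated regions and any without an open promoter. Some genes that this rule or the marker lists take are not reported here. Gm36634, Gm16174, Aplp1 and Clptm1 were named for regions within them after their values were seen. Alternatives covered the region threshold, overlap rule, locus, promoter width, motif window, motif and measure. Starts of coding transcripts alone were an alternative chosen after seeing the data. Overlap and motif calls were checked on simulated data, with 4000 of 4000 overlap calls and 500 of 500 motif calls equal to the truth. The motif check planted 1 form of the NF-kB consensus in sequence of A and T alone. It could give no false match, and calls in GC-rich sequence were not checked by it. Python 3.11.15, pandas 2.3.3, numpy 2.4.6, scipy 1.17.1, pysam 0.24.0 and matplotlib 3.10.9 were used.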

Additional observations from a re-analysis of the deposited data

How the results depend on the processing

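All 10 genes had an open promoter under each of the 8 alternatives tried, and the number of other pathway genes with one ran from 38 to 44. The 64 replicated regions became 32 with the 50000 strongest entries of each list by signal, 39 with the gene body alone and 139 with 50 kb to either side, and counting 1 replicate alone gave 70 to 79. Nfkb1 went from 23 replicated regions to 8 with the 50000 strongest entries by signal. The share overlapped by the other replicate was 81.4% in replicate 1 and 72.2% in replicate 2 when at least 50% of each region had to overlap, and in replicate 2 it was 97.0% and 95.9% with the 50000 strongest entries by signal and by -log10 q. The share with the NF-kB consensus, 21.9%, was 12.5% within 50 bp of the summit (5.10% of all replicated regions), 37.5% anywhere in the region (22.1%) and 10.9% with the strict motif (3.18%). The median promoter percentile, 60.4 and 64.2 by signal, was 95.0 and 95.8 by -log10 q. The cause of these moves was not tested. Over single loci, 54 of 80 alternatives stayed within 1.5 times the count. No paired analysis was possible because there is 1 group and no groups were compared. With 2 libraries of unknown depth, no interval can be given, and a region missing from a list was not detectable at its threshold.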

Other observations

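Farther from the genes, between 10 and 50 kb from the gene bodies, 75 replicated regions of replicate 1 were found, 56 of them away from the promoters of coding genes. Rel had 12 and Tnfaip3 11, all away from coding promoters, then Bcl3 had 10. Rela had 5, and each of these lay at a coding promoter. The Rel regions divided into 7 upstream and 5 beyond the 3′ end, where those 5 lay within the neighbouring gene Pus10. The highest by -log10 q among the upstream ones in replicate 1 stood at -32.6 kb from the Rel start, with a signal of 7.48 and a -log10 q of 63.3. In replicate 2, 2 regions lay there, and the higher, at -32.5 kb, had 9.38 and 122.

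Tnfaip3 had 5 of its 11 upstream. By signal, a region at -13.1 kb from the start was highest in replicate 1, with 14.9, ahead of one at -28.7 kb with 12.4. In replicate 2 they had 13.1 and 13.2, so their order was not kept. By -log10 q the highest was at 27.9 kb in replicate 1 and 27.8 kb in replicate 2, with 122 and 177, above the 109 and 164 of the Tnfaip3 promoter. An NF-kB consensus match lay near the summit of 9 of the 75 regions of replicate 1 (12%), beside 8.68% of all replicated regions, and at Nfkbia of 3 of 6. Which gene these regions serve was not measured.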
